A study of Mus musculus with 4 samples.

Results

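The clustered histone genes were taken as every probe, other than control probes, whose gene name on the array starts with Hist1h, Hist2h, Hist3h or Hist4h. This gave 34 genes read by 44 probes, of 27962 gene names and 41174 probes in all. The probes comprised 8 for H1 histones, 15 for H2A, 10 for H2B, 3 for H3 and 8 for H4. Of the 44, 30 lie in the Hist1 cluster on chromosome 13, 7 in the Hist2 cluster on chromosome 3, 5 in the Hist3 cluster on chromosome 11 and 2 at Hist4 on chromosome 6. The choice used names only and no measured value.

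Histones package DNA into nucleosomes. H3 and H4 form the central tetramer, pairs of H2A and H2B complete the octamer, and H1 linker histones bind the DNA that enters and leaves it. The clustered genes are known for making histones while DNA is being copied. Their mRNAs have no introns and typically end in a conserved stem-loop, bound by the protein Slbp, in place of a poly(A) tail. The labelling method named in the labels, as it is generally known, starts cDNA synthesis from poly(A) tails. What share of the mRNA of these genes the probes measured was not tested.

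The arrays measured prostate RNA of 4 mice of mixed strain, 60 days old, each set against a pool of prostate RNA from 3 wild-type mice. The 2 mutant mice were Rb1R654W/F:Trp53F/F:PB-cre4, with an Rb1 allele coding for the R654W protein, which the series describes as deficient in E2F binding, over a conditional allele. The 2 null mice were Rb1F/F:Trp53F/F:PB-Cre4, with both Rb1 alleles conditional. All 4 mice also carried conditional Trp53 alleles and the Cre transgene. The probasin promoter that drives Cre is active in prostate epithelium, while the RNA came from tissue, so other cells keep their alleles. The design asks how a retinoblastoma protein with reduced E2F binding compares with loss of the protein, and how both compare with wild-type prostate.

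Probes with a mouse signal well above background numbered 26168 and 25549 for mutant mice 1 and 2, against 22183 and 25047 for null mice 1 and 2. Null mouse 1 stood apart. Its median background-subtracted signal was 20.5, against 55.1 to 90.1 in the other mice, and 11 heat shock genes had a median log2 ratio of 3.50 to the pool there, against -0.01 to 0.25 in the others. Prostate epithelial markers were detected on every array at all 11 genes past the filter. Their median ratio was 0.27 and 0.02 in mutant mice 1 and 2, against -0.03 and -0.11 in null mice 1 and 2. In null mouse 1 these genes ran from -3.13, at Msmb, to 1.30, at Krt8. Among markers of other cells, the median ratio of 10 macrophage genes was 0.68 and 0.61 in mutant mice 1 and 2, against -0.17 and 1.21 in null mice 1 and 2. The median of 4 seminal vesicle genes was -4.08, -0.61, -4.64 and -3.59 in the same order. The part of these in the histone ratios was not tested. In tissue RNA, fewer cells of a type and less RNA per cell cannot be told apart.

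Copies of a histone gene can share long stretches of coding sequence, and the probes did so. The following 60-base probes, printed 5′ to 3′ as in the array files, show how much signal genes could share. In each set the first probe is all in lower case, and capitals in the others mark bases that differ from it over the aligned stretch. The sets are from H2A genes of the Hist1 cluster (Hist1h2af at chr13:22900228-22900287 and Hist1h2aa at chr13:23300592-23300651, build mm7, plus strand), from H2B (Hist1h2bk at chr13:21402048-21402107 and Hist1h2bm at chr13:21088259-21088318, plus strand, with Hist3h2bb at chr11:59035740-59035799, minus strand) and from H4 (Hist1h4f at chr13:22917373-22917432, minus strand, Hist1h4d at chr13:22947598-22947657, plus strand, and Hist2h4 at chr3:96136980-96137039, minus strand).
Hist1h2af: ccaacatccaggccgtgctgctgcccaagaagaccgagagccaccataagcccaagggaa
Hist1h2aa: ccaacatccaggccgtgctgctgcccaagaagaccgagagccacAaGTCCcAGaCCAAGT
Hist1h2bk: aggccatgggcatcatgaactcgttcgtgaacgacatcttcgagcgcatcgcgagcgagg
Hist1h2bm: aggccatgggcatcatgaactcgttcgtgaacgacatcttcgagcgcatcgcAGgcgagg
Hist3h2bb: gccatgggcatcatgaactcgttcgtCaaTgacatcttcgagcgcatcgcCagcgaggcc
Hist1h4f: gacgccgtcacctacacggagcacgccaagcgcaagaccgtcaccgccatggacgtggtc
Hist1h4d: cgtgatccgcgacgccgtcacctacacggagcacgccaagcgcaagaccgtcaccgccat
Hist2h4: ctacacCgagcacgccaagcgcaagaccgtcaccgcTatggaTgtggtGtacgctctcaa

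The Hist1h4d and Hist1h4f probes had no differing base over the 50 bases where they overlap, and the Hist1h2bk and Hist1h2bm probes differed at 2 of 60. A probe of this kind cannot assign its signal to a single gene. By an identical run of 20 or more bases, 13 of the 44 probes resembled a probe of another member gene, namely 5 of H2A, 3 of H2B and 5 of H4, and none of H1 or H3. This criterion was settled after the sequences and values had been seen. The one tried first, 85% identity over 40 or more overlapping bases, gave 10 probes, of which 1, Hist1h2ba, is not among the 13. Outside the members, 3 probes held 25 bases of a member probe, and the H2afj probe shared such bases with Hist1h2aa and Hist1h2af.

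Of the 44 probes, 33 were well above background in both channels of all 4 arrays. A probe passed the filter if it was well above background in both mice of either genotype, or in the pool throughout, which held for 36 member probes of 29 genes and for 24918 probes overall. By class, 6 of 8 H1, 12 of 15 H2A, 9 of 10 H2B, 2 of 3 H3 and 7 of 8 H4 probes passed. The 8 that did not were the third Hist1h1d probe and Hist1h1t, a testis H1, in H1, the Hist1h2ab, Hist1h2ac and Hist1h2ae probes in H2A, the second Hist1h2bc probe in H2B, Hist1h3a in H3 and 1 of the 2 Hist4h4 probes in H4. No member spot was saturated.

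**Figure D1:**
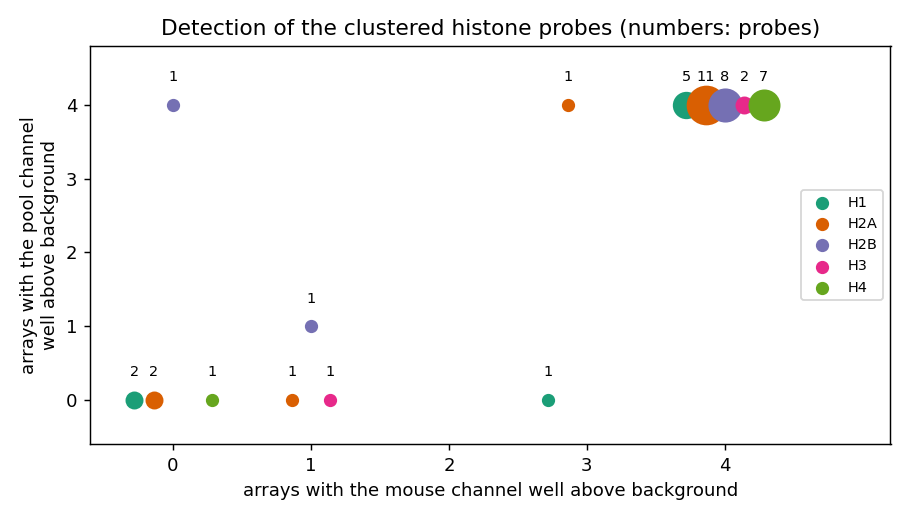
Number of arrays (of 4) on which the mouse channel (horizontal axis) and the wild-type pool channel (vertical axis) were well above background, for the 44 clustered histone probes. Point area and the number above give the probes of a class, and classes at the same position are set side by side. The top right holds the 33 probes detected in every channel.

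All 13 probes with a shared run of bases were above background in every channel, against 20 of the other 31. Of the probes that missed the filter, 3 carried bases of the histone stem-loop itself. The motif searched was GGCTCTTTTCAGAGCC, on the strand of the probe, with 10 or more of its bases in a row, a search chosen after the values had been seen. It was found in 35 of the 41174 probes, of which 17 passed the filter, and the 3 members among them did not. The parts of the 3 probes that hold it are shown with the motif in capitals, for Hist1h2ab (within chr13:23117325-23117384, plus strand), Hist1h2ae (within chr13:22936613-22936672, minus strand) and Hist1h3a (within chr13:23127689-23127748, minus strand), all in mm7.
Hist1h2ab: aacaaaGGCTCTTTTCA
Hist1h2ae: CTTTTCAGAGCCattcac
Hist1h3a: accaaaGGCTCTTTTCAGAGCCaca
The mouse channel was above background for Hist1h2ae and Hist1h3a on 1 array each and for Hist1h2ab on none.

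All ratios that follow are log2 of the mouse over the pool, after loess normalisation within each array. Over the 36 probes past the filter the median was 0.10 and -0.08 in mutant mice 1 and 2, against -0.08 and -0.04 in null mice 1 and 2, close to the medians over all probes, which lay between -0.01 and 0.03. Within classes, H2A had a median of 0.78 in mutant mouse 1, against 0.03 in mutant mouse 2 and -0.16 and 0.12 in the null mice. For H1 the medians were -0.25 and -0.69 in the mutant mice, against -0.16 and -0.17 in the null mice. With Agilent processed signals the H1 medians were -0.61 and -1.12 in the mutant mice, against -0.77 and -0.37 in the null mice.

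H4 had a median of 0.08 in mutant mouse 1 and -0.57 in mutant mouse 2, against 0.03 and -0.18 in null mice 1 and 2. H2B stayed between -0.08, in null mouse 1, and 0.31, in mutant mouse 2. H3 lay at -0.49 and -0.35 in the mutant mice and -0.26 and -0.28 in the null mice.

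**Figure D2:**
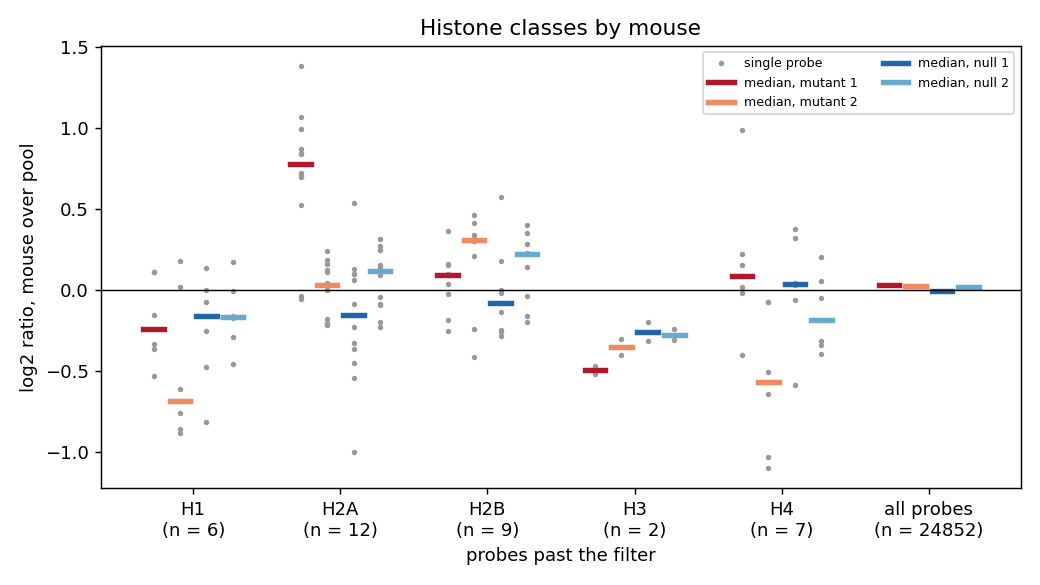
Log2 ratio of mouse over wild-type pool (vertical axis) by histone class and for all probes measured on all 4 arrays. Grey points are single probes past the filter and coloured bars are class medians per mouse, with mutant mice left of null mice. H2A is high in mutant mouse 1 and H4 low in mutant mouse 2. H3 is below 0 in all 4 mice with loess but above 0 when arrays are only centred on their median.

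These class values depend in part on how the arrays were scaled. When each array was only centred on its median, the median of all probes past the filter became 0.62 and 0.56 in the mutant mice and -0.04 and 0.41 in the null mice. Relative to that shift, H1 was again below in all 4 mice, at -0.73 and -0.94 in the mutant mice and -0.16 and -0.39 in the null mice, and H2A again stood highest in mutant mouse 1, at 1.08. H2B then lay at 0.53 and 0.71 in the mutant mice, against -0.06 and 0.59 in the null mice, and H4 at 0.50 and -0.33 in the mutant mice, against -0.01 and 0.03 in the null mice, unlike their values after loess. H3 changed side and lay 0.29, 0.21, 0.07 and 0.34 above the median of all probes, the first pair in mutant mice 1 and 2 and the second in null mice 1 and 2.

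Among linker histones, Hist1h1c (H1f2 in current naming, probe at chr13:23105951-23106010, mm7, plus strand) was below the pool in every mouse after loess. Its log2 ratio was -0.34 and -0.86 in mutant mice 1 and 2, against -0.82 and -0.29 in null mice 1 and 2. The genotypes overlapped fully, with a low and a less low mouse in each. Over all 4 mice the fitted change was -0.58 (SE 0.15, limma, unadjusted p = 0.0104, adjusted p = 0.211), and with median centring it was 0.22, against the 0.37 median of all probes. Centred values were 0.89 and 0.12 in mutant mice 1 and 2, against -0.72 and 0.57 in null mice 1 and 2, so that Hist1h1c lay below the pool in null mouse 1 alone and above the array's median in mutant mouse 1 and null mouse 2.

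Hist1h1d (H1f3) was measured by 2 probes past the filter, which gave similar values. The probe at chr13:22923327-22923386 (mm7, plus strand) gave -0.53 and -0.76 in mutant mice, against -0.48 and -0.17 in null mice. With Agilent processed signals it gave -1.07 and -1.38 in mutant mice, against -0.86 and -0.47 in null mice. The other, at chr13:22921576-22921635, gave -0.36 and -0.61 in mutant mice, against -0.26 and -0.16 in null mice. Both mutant mice were below both null mice at each probe, by 0.32 and 0.28 on the log2 scale, with standard errors of 0.21 and 0.19. With median centring the genotypes overlapped at both, at -0.19 and -0.49 in mutant mice, against -0.56 and 0.10 in null mice at the first, where the difference was -0.11, and at -0.19 and -0.51 against -0.32 and -0.05 at the other.

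Hist1h1e (H1f4) varied between mice of a genotype, at 0.11 and -0.88 in mutant mice, against -0.00 and -0.46 in null mice. With Agilent processed signals it was at -0.04 and -2.11 in mutant mice, against -0.07 and -0.92 in null mice. Hist1h1b (H1f5) stayed near the pool, at -0.15 and 0.18 in mutant mice, against 0.14 and 0.17 in null mice. Hist1h1a (H1f1) was not above background in the pool on any array. It passed the filter only through the mutant mice, and no fold is given. Of the 6 H1 probes, 3 were below the pool in all 4 mice after loess, the Hist1h1c probe and both Hist1h1d probes. The same held for 8 of the 36 members and 14.9% of all probes. Among the H1 probes the count was 4 with Agilent processed signals, where Hist1h1e joined these 3, and 2 with median centring. Those 2 were the Hist1h1d probe at chr13:22921576-22921635 and Hist1h1a, for which the pool was not above background.

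Upstream of the start of Hist1h1c and Hist1h1d, RefSeq sequence (build GRCm38.p6, plus strand) holds the motifs known from H1 promoters. The 150 bases before each start are shown because these genes have the lowest H1 ratios as a mean over the 4 mice after loess. These stretches lie at chr13:23738657-23738806 for Hist1h1c and chr13:23554882-23555031 for Hist1h1d. Capitals mark AAACACA, known as the AC box, the CCAAT box, the TATAAA box and the octamer ATTTGCAT, each on either strand.
Hist1h1c: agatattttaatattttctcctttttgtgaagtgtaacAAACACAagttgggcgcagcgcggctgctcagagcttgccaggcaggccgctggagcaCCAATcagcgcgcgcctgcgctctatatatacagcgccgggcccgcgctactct
Hist1h1d: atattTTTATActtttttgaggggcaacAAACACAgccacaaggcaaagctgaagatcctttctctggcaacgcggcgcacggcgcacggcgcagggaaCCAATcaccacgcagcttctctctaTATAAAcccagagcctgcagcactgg

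Over the window of the RefSeq promoter table, 29 of the 34 genes matched, with 30 promoters. That window is not the 150 bases shown above. For example, the 150 bases before Hist2h3c1 hold no CCAAT on either strand, yet its promoter is counted with it below. AAACACA was present in 5 of 6 H1 promoters, against 7.18% of all promoters in the table. CCAAT was present in all 6 H1, 11 H2A, 6 H2B and 2 H3 promoters but in 2 of 5 H4 promoters, against 37.4% of all. The octamer, the site of the factor Oct1 (Pou2f1) in H2B promoters, was found in 4 of 6 H2B and 6 of 11 H2A promoters and in 1.74% of all. TATAAA was in 4 of 6 H1, 7 of 11 H2A, 3 of 6 H2B, 1 of 2 H3 and 4 of 5 H4 promoters, and in 13.6% of all. H2A and H2B genes are often arranged as divergent pairs, so their promoter windows can overlap. A match describes these letters only, and the motifs were chosen with the ratios known.

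H2A, which dimerises with H2B, had its highest ratios in mutant mouse 1. Of 12 probes, 10 were highest in mutant mouse 1, and 10 were lowest in null mouse 1. Of these 12, 5 share a run of bases with another member gene's probe and so can share signal. Each count was 5 among those 5 probes and 5 among the other 7. Over all probes measured on all 4 arrays, mutant mouse 1 was the highest for 28.5% and null mouse 1 the lowest for 37.6%, and over all 36 member probes for 17 and 17. With median centring mutant mouse 1 was the highest for the same count, 10 of 12, and null mouse 1 the lowest for 12. With Agilent processed signals mutant mouse 1 was the highest for 10, and null mouse 1 the lowest for 7 and mutant mouse 2 for 5. These counts were chosen after the values had been seen and describe single mice, not genotypes.

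Hist3h2a (H2aw) gave the highest ratio, 1.38 in mutant mouse 1 at the probe at chr11:59036430-59036489 (mm7, plus strand), against 0.12 in mutant mouse 2 and 0.10 and 0.31 in null mice 1 and 2. A further Hist3h2a probe, at chr11:59036261-59036320 and annotated on the opposite strand, gave 1.07, 0.02, 0.10 and 0.09 in the same order. That probe holds the reverse complement of 17 bases of the Hist1h2ai probe, in capitals here with 6 bases on each side.
Hist3h2a: cgagctTTGCCGCCCTGCTTGCCacgacc
The third Hist3h2a probe gave 0.72 and -0.21 in mutant mice, against 0.53 and 0.25 in null mice, so null mouse 1 was high at this probe but not at the other two.

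The Hist2h2ac probe (H2ac20, chr3:96119778-96119837, mm7, plus strand) had the largest difference between the genotypes of any member. Its listed position lies just past that of the Hist2h2aa1 probe (chr3:96119529-96119588, plus strand), while RefSeq places Hist2h2ac on the minus strand. Which of these genes it reads was not tested. It was at 0.70 and -0.21 in mutant mice 1 and 2, against -1.0 and -0.20 in null mice 1 and 2. Mutant mouse 2 and null mouse 2 were level, and the spread came from the mice numbered 1. The fitted difference was 0.85 (SE 0.42, limma, unadjusted p = 0.0998, adjusted p = 0.985).

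Hist1h2af (H2ac10) was read by 2 probes that disagreed. The probe printed above gave 0.84 and -0.21 in mutant mice, against -0.54 and -0.23 in null mice, close to the 0.70 and -0.18 against -0.36 and -0.04 of the Hist1h2aa probe with which it shares 44 bases in a row. Hist1h2aa is known as a testis gene in mouse, and its signal cannot be told apart from that of Hist1h2af here. The second Hist1h2af probe gave 0.52 and 0.18 in mutant mice, against 0.13 and 0.25 in null mice, like Hist1h2ak, at 0.87 and 0.16 against 0.06 and 0.27, whose probe shares 40 bases in a row with it.

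Hist2h2aa1 was at 0.99 and -0.00 in mutant mice, against -0.23 and 0.15 in null mice. The 2 probes that the array names Hist2h2aa2, its near-copy, were not high in mutant mouse 1. The first gave -0.06 and 0.04 in mutant mice, against -0.33 and -0.09 in null mice. The second gave -0.04 and 0.24 in mutant mice, against -0.45 and -0.09 in null mice. The authors' deposited table names both Hist2h2aa1. RefSeq places Hist2h2aa2 on the minus strand, while these probes are listed on the plus strand. Which gene they read was not tested. Hist1h2ai was at 0.84 and 0.11 in mutant mice, against -0.09 and 0.14 in null mice. The H2afj probe, which is no member but shares bases with Hist1h2aa and Hist1h2af, gave similar values, at 0.93 and -0.32 in mutant mice, against -0.45 and -0.14 in null mice.

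**Figure D3:**
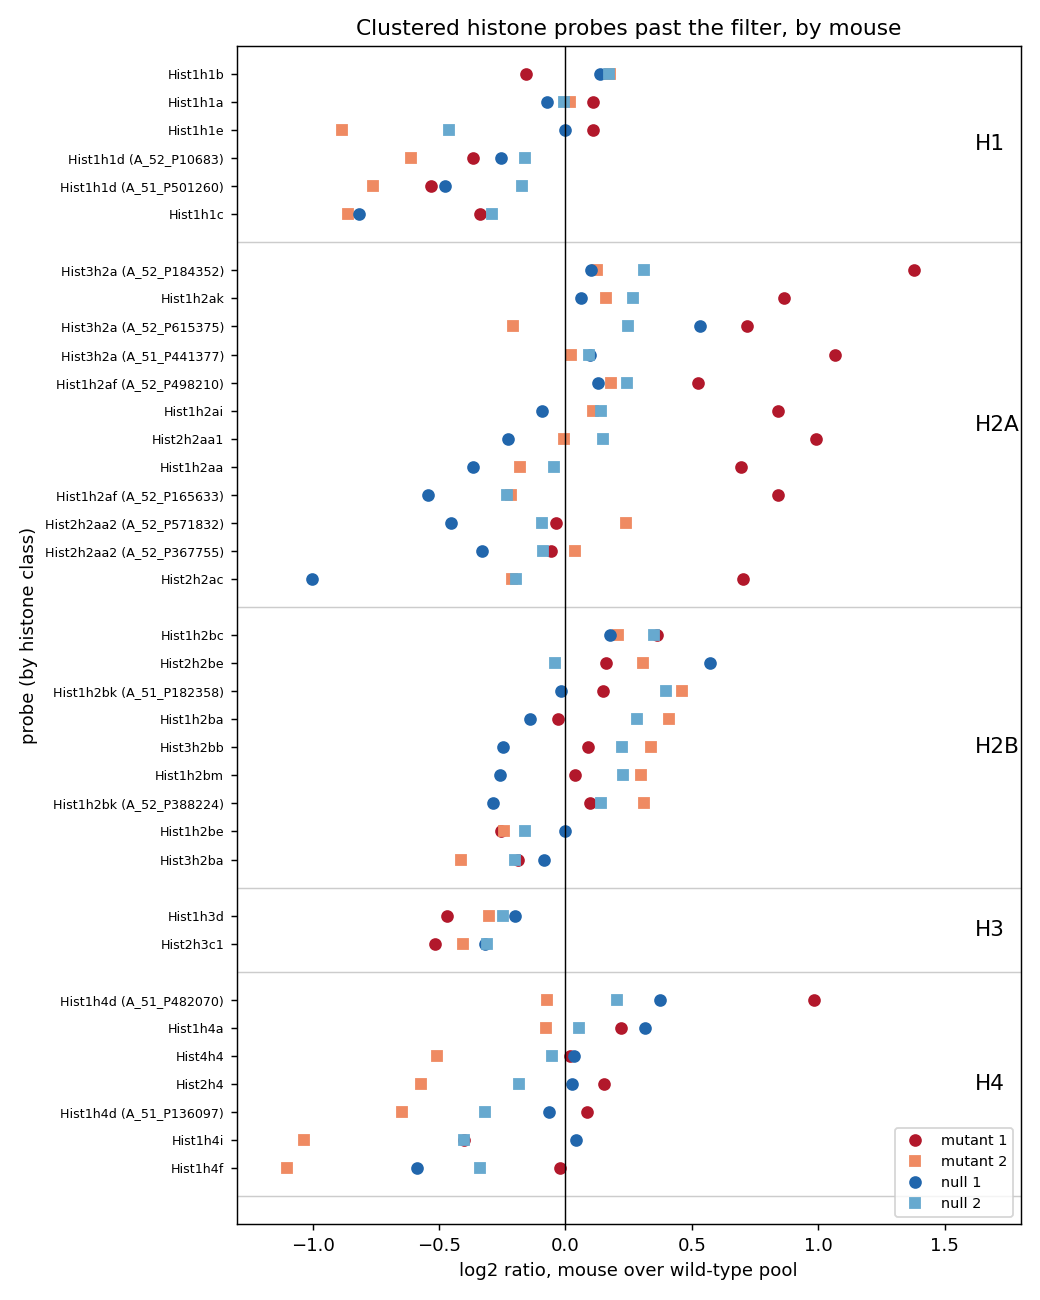
Log2 ratio of mouse over wild-type pool (horizontal axis) for each of the 36 clustered histone probes past the filter, ordered by class and, within a class, by the mean over mice. Red and orange mark mutant mice 1 and 2, dark and light blue null mice 1 and 2. Mutant mouse 1 lies to the right in 10 of 12 H2A rows and mutant mouse 2 to the left in all 7 H4 rows, though in 2 of 7 when arrays are only centred on their median. Of the 12 H2A and 7 H4 rows, 5 in each class are probes that share a run of bases with another member gene's probe. The 2 H3 rows lie left of 0 with loess. With median centring they lie right of 0, except Hist2h3c1 in null mouse 1, at -0.017.

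Hist1h2bc (H2bc4) was above the pool in all 4 mice, at 0.36 and 0.21 in mutant mice, against 0.18 and 0.35 in null mice, with a fitted mean of 0.28 (SE 0.09, limma, unadjusted p = 0.0322, adjusted p = 0.254). Its 2 probes lie far apart on chromosome 13, at 23058152 and 21203334, and only the first passed the filter. Hist2h2be was at 0.16 and 0.31 in mutant mice, against 0.57 and -0.04 in null mice.

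The Hist1h2bk, Hist1h2bm and Hist3h2bb probes printed above gave near-equal ratios. They lay between 0.04 and 0.10 in mutant mouse 1, 0.30 and 0.34 in mutant mouse 2, -0.29 and -0.25 in null mouse 1 and 0.14 and 0.23 in null mouse 2. The RefSeq table lists Hist3h2bb as the transcribed pseudogene H2bu1-ps, and this probe cannot separate it from its coding relatives. A second Hist1h2bk probe gave 0.15 and 0.46 in mutant mice, against -0.02 and 0.40 in null mice.

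Hist1h2ba, a testis H2B, was at -0.03 and 0.41 in mutant mice, against -0.14 and 0.28 in null mice. Its probe matches the Hist1h2bk and Hist1h2bm probes printed above at 35 of 40 overlapping bases each. Which gene gave its signal was not tested. Hist3h2ba was at -0.19 and -0.41 in mutant mice, against -0.08 and -0.20 in null mice, below the pool in all 4. Hist1h2be was above background in the pool on all 4 arrays and in no mouse. It passed the filter only through the pool, and no fold is given.

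Both H3 probes were below the pool in all 4 mice after loess, while with median centring Hist2h3c1 averaged 0.59 and Hist1h3d 0.64 over the mice, above the 0.37 of all probes. Hist2h3c1 (H3c14, chr3:96121184-96121243, mm7, plus strand) had ratios of -0.52 and -0.41 in mutant mice, against -0.32 and -0.31 in null mice. Hist1h3d (H3c4, chr13:22942103-22942162, mm7, plus strand) had -0.47 and -0.30 in mutant mice, against -0.20 and -0.25 in null mice. The 2 probes share 17 identical bases in a row, and which H3 genes each reads was not tested. The mutant mice lay below the null mice at both, by 0.15 and 0.16 with a standard error of 0.18 each. With median centring the differences turned to 0.45 for Hist2h3c1 and 0.44 for Hist1h3d, against 0.38 over all probes.

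H4, the most conserved of the core histones, was lowest in mutant mouse 2 at all 7 probes, and mutant mouse 2 was the lowest of the mice at 18.4% of all probes and at 14 of the 36 member probes. Of the 7 H4 probes, 5 share a run of bases with another member gene's probe and so can share signal. With median centring mutant mouse 2 was lowest at 2 of 7. Hist1h4f (H4c6) was at -0.02 and -1.10 in mutant mice, against -0.59 and -0.34 in null mice. Hist1h4i (H4c9), the member with the lowest fitted difference of mutant minus null mice, was at -0.40 and -1.03 in mutant mice, against 0.04 and -0.40 in null mice, a fitted difference of -0.54 (SE 0.30, limma, unadjusted p = 0.129, adjusted p = 0.985). With median centring the difference was 0.055, against 0.38 over all probes. The position listed for the Hist1h4i probe, chr13:21406569-21406575 (mm7), spans only 7 bases. Which gene it reads was not tested.

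The 2 Hist1h4d probes differed by up to 0.90 in a mouse. The probe printed above gave 0.08 and -0.65 in mutant mice, against -0.06 and -0.32 in null mice. The other gave 0.98 and -0.07 in mutant mice, against 0.37 and 0.20 in null mice. Hist2h4 was at 0.15 and -0.57 in mutant mice, against 0.03 and -0.18 in null mice, Hist1h4a at 0.22 and -0.08 against 0.32 and 0.05, and the Hist4h4 probe past the filter at 0.02 and -0.51 against 0.03 and -0.05.

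Between mutant and null mice, no member passed an adjusted p of 0.05 (limma with Benjamini-Hochberg adjustment over all probes), and the same was true of all 24914 probes tested, or 0%. The smallest adjusted p was 0.985, for the members as for all probes. At an unadjusted p under 0.05 there were 0 of 36 members, against 2.18% of all probes, 1.19% higher and 0.995% lower. The member differences had a median of 0.06, against 0.02 over all probes, with 19 above and 17 below 0. Without mutant mouse 1 the member median was -0.06, and without mutant mouse 2 it was 0.16.

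The arrays of the genotypes did not overlap at 10 members, where 4 were higher and 6 lower in mutant mice. Over all probes 16.7% did not overlap with mutant mice higher, 13.6% with mutant mice lower and 30.4% in either direction. The 4 higher were Hist1h1a, Hist1h2af at 1 probe and Hist2h2aa2 at both probes. The 6 lower were both Hist1h1d probes, Hist1h2be, Hist1h3d, Hist2h3c1 and Hist1h4i. Hist1h1a was not above background in the pool, Hist1h2be in any mouse and 1 Hist2h2aa2 probe in 1 mouse, so their order is not a measured difference. Among the 33 members above background in every channel, a restriction chosen after the values had been seen, 2 were higher and 5 lower without overlap. The shares of all such probes were 16.2% higher, 14.2% lower and 30.5% in either direction. In simulated data for this comparison, 200 of 24918 probes were changed, with 2 mice a genotype. None of the 200 was recovered at a 2-fold change (0) or a 4-fold change (0), and 173 at an 8-fold change. Other numbers of changed probes and other noise were not simulated, so this limit holds for that setting.

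**Figure D4:**
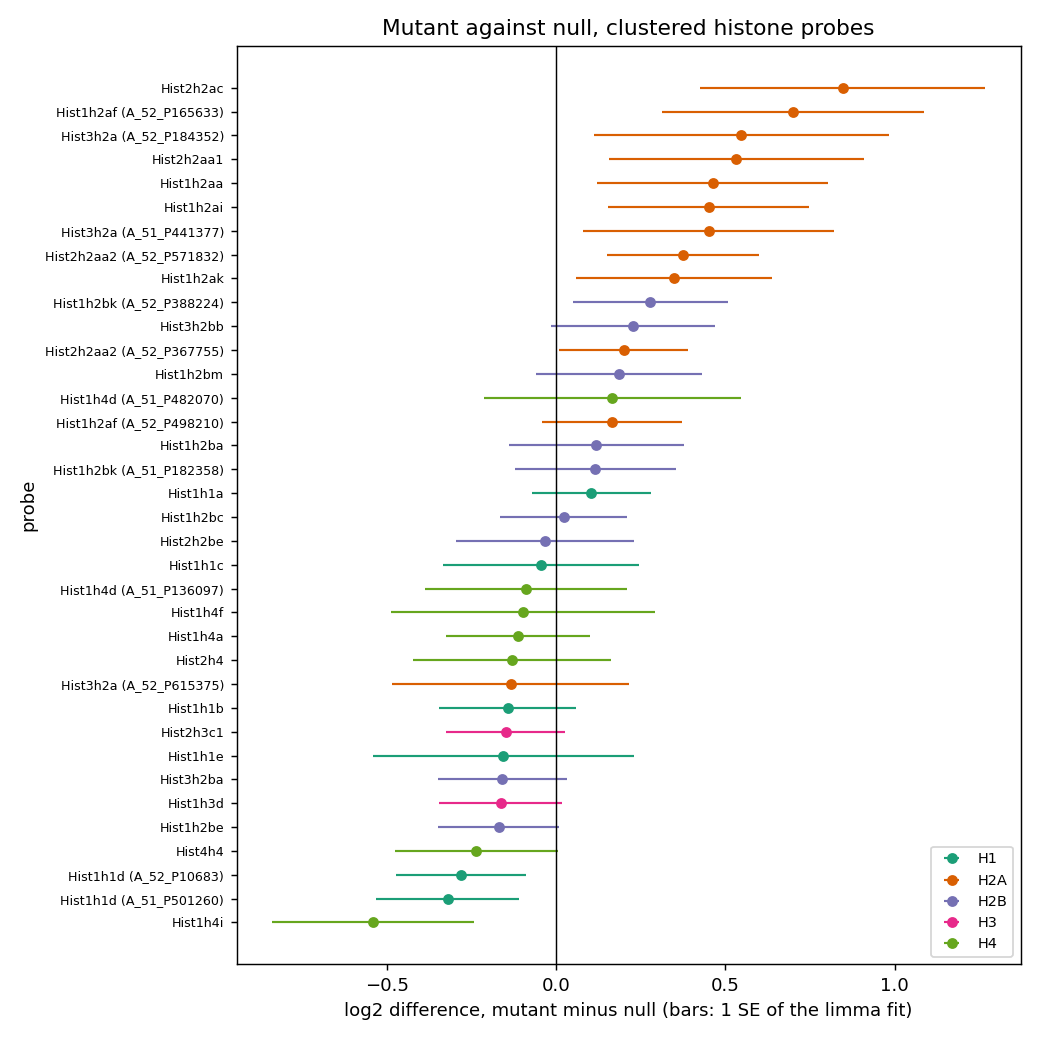
Fitted log2 difference of mutant minus null mice (horizontal axis) for each clustered histone probe past the filter, ordered by size and coloured by class. Bars are 1 standard error of the limma fit, from 2 mice a genotype. H2A probes take the top 9 places and the values run between -0.54 and 0.85, with no member past an adjusted p of 0.05.

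Against the pool, which counts as 1 control sample and leaves out the spread between wild-type mice, no member passed an adjusted p of 0.05 either. Among all probes 1 did for mutant mice (0.00401%), 0 for null mice (0%) and 3 for all 4 mice (0.012%). Over all 4 mice, 9 of 36 members had an unadjusted p under 0.05, against 17.6% of all probes. Of these 2 were higher and 7 lower, against 9.31% of all probes higher and 8.26% lower. The 2 higher were Hist1h2bc and the second Hist1h2af probe. The 7 lower were Hist1h1c, both Hist1h1d probes, Hist2h3c1, Hist1h3d, Hist1h4f and Hist1h4i, and the smallest adjusted p of a member was 0.199, at Hist1h1d. In the mutant mice alone 6 members had an unadjusted p under 0.05, all lower and none higher, against 10.6% of all probes in either direction, 4.36% lower and 6.26% higher. In the null mice 1 member did, Hist1h1c, which was lower, against 10.2% of all probes in either direction, 5.38% lower and 4.84% higher. These comparisons share the pool. With median centring 4 of 36 members passed over all 4 mice, all higher, against 17.1% of all probes, or 16.8% counting those higher. Without null mouse 1, again no member passed the adjusted threshold in any comparison.

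Other genes of histone supply and of S phase were counted from the same fit. Over all 4 mice against the pool none was called after adjustment. Of 36 S phase genes 13 had an unadjusted p under 0.05 and were higher and 1 was lower, against the 9.31% and 8.26% of all probes. Pcna, the sliding clamp of DNA polymerase, was at 0.84 and 0.72 in mutant mice, against 0.65 and 0.79 in null mice. Mcm6, of the replicative helicase, was at 1.30 and 1.73 in mutant mice, against 0.41 and 1.70 in null mice. The median of the S phase list was 0.37 and 0.28 in mutant mice, against -0.11 and 0.46 in null mice, and its difference from the histone probes was not tested.

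Among 20 genes of histone transcription and mRNA 3′ end processing, 5 were higher and 1 lower at the same unadjusted threshold. Slbp, which binds the stem-loop, was at 0.39 and 0.65 in mutant mice, against 0.08 and 0.62 in null mice. Ccne1, the cyclin E whose kinase acts on the histone gene activator Npat, was at 0.86 and 0.94 in mutant mice, against 0.56 and 0.87 in null mice. Lsm10, of the U7 particle that helps cut the 3′ end, was at 0.53 and 0.24 in mutant mice, against 0.24 and 0.47 in null mice.

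Of 21 histone chaperones past the filter 8 were higher and 1 lower. Hat1, which acetylates new H4, was at 0.57 and 0.58 in mutant mice, against 0.04 and 0.58 in null mice, and Asf1a, a carrier of H3 and H4, at 0.60 and 0.33 against 0.39 and 0.23. The one lower was Hjurp, which loads the centromeric variant Cenpa, at -0.47 and -0.56 in mutant mice, against -0.44 and -0.52 in null mice.

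Of 12 replication-independent histone variants past the filter 2 were higher and 2 lower. The 2 genes for H3.3 lay on opposite sides of the pool. H3f3b was at -0.60 and -0.31 in mutant mice, against -0.48 and -0.37 in null mice, and H3f3a at 0.50 and 0.51 in mutant mice, against 0.09 and 0.60 in null mice. The linker variant H1f0 was at -0.48 and -0.30 in mutant mice, against -1.11 and -0.10 in null mice, and H1fx at 2.31 and 0.44 in mutant mice, against 0.59 and 0.63 in null mice.

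The authors' deposited table of group means held 26 rows of member accessions. They include Hist1h1t, Hist1h2ab, Hist1h2ae and Hist1h3a, whose probes missed the filter, and Hist1h2be, which was above background in no mouse. In the authors' deposited table the ratio of the larger to the smaller group mean ran from 1.13 to 2.43 in these rows. The largest was Hist1h1a in the authors' deposited table, with a mean ratio to the pool of 1.65 in mutant mice and 0.679 in null mice, the gene whose pool signal was not above background on any array. The authors' deposited table gave Hist2h2ac as 1.04 in mutant mice and 0.615 in null mice, and Hist1h4i as 0.509 in mutant mice and 0.770 in null mice.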

How the data were processed

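Per the file headers, the deposited array files hold spot brightness as intensity, read with Agilent Feature Extraction 9.5.1.1. The submitters' processing notes name version 8.5. Cy5 held the mouse and Cy3 the pool, per the labels, with no dye swap, and the arrays lie on 1 slide. The deposited log10 ratio was made by Feature Extraction from its processed signals, per the file headers. A table deposited by the authors lists the mean linear ratio of each genotype to the pool, with no p-value.

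Background was corrected by normexp with an offset of 50, from mean signals and background medians, before loess normalisation within each array (limma 3.58.1, R 4.3.3). Control spots had weight 0, outlier-flagged spots were left out and spots of a probe were averaged. Log2 ratios of all probes past the filter, computed from the deposited intensity values, were fitted with lmFit and eBayes with a term per genotype, with Benjamini-Hochberg adjustment over all probes. At 66 probes past the filter an array had no value, and shares that need all 4 mice leave them out. The labels call the 4 mice biological replicates, and the number of arrays limits the precision. The fit was tested on simulated data. An exact permutation of 2 against 2 mice cannot go below p = 0.333.

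The members and lists were chosen with earlier results of these data known. Named probes were Hist1h1c, the 3 brightest of each class, up to 5 per direction of smallest p against the pool or, where arrays did not overlap, between genotypes, and genes with several probes. Other lists were named by up to 4 genes of smallest p. Other probes are given to complete their class. Current symbols and promoters came from RefSeq (GRCm38.p6), and probe positions are those of the files (mm7). Same-numbered mice were checked for pairing by the correlation of their deviations, r = 0.0036 across probes. Alternatives covered background correction, normalisation, filters, 1 probe per gene, outlier spots, a replicate block and leaving out each mouse.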

Additional observations from a re-analysis of the deposited data

Results flagged for a closer look

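Hist1h1a had both mutant mice above the pool and both null mice below it, which flagged it for a closer look. Its log2 ratio was 0.11 and 0.02 in mutant mice and -0.07 and -0.01 in null mice. The fitted difference was 0.10, with an adjusted p of 0.985 (limma, over all probes). The pool channel was not above background at this probe on any array and the mouse channel was on 3 of 4. The probe passed the filter only through the mutant mice, where it is high, so these values are not a measured difference from the pool or between the genotypes. With median centring the difference was -0.07.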

How the results depend on the processing

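With 2 mice a genotype, changes of 4-fold or less between genotypes were not recovered in the simulated data, under the setting described above. There is 1 pool, and dim probes are limited by signal over background. No clustered histone probe was called between mutant and null mice, or for either genotype against the pool, under any alternative run. Over all 4 mice, median centring called 4 members, Hist1h2bc, Hist1h4a, Hist2h2be and 1 probe of Hist3h2a, all above the pool and named after their values were seen, against 17.1% of all probes, and no other alternative called any. Slide as a block was not run, since there is 1 slide. Mouse numbers are not shown to pair the mice, with a single correlation of 0.0036.

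Over all probes, mutant mice against the pool gave 1 call. It was 0 with Agilent processed signals, median centring, no filter, outlier spots kept or the replicate block, 3 with no normexp offset, 2 with both channels above background on all arrays or 1 probe per gene, and 0 to 2 when a mouse was left out. Null mice against the pool gave 0 calls, against 2 with no offset, 2 with both channels above background and 0 to 380 when a mouse was left out, 380 being without null mouse 2. All 4 mice gave 3 calls, against 6 with processed signals, 24 with no offset, 4260 with median centring, 0 with no filter, 5 with both channels above background, 0 with the replicate block and 0 to 326 when a mouse was left out. Mutant against null gave 0 to 9 calls when a mouse was left out.

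The member median between mutant and null mice, 0.06, was 0.54 with median centring, -0.033 with 1 probe per gene and -0.063 to 0.16 when a mouse was left out. For mutant mice against the pool, 0.14, it was 0.86 with median centring and -0.075 to 0.14 when a mouse was left out. For null mice, -0.06, it was -0.16 with processed signals, -0.10 with no offset, 0.20 with median centring and -0.024 with no filter. Median centring moved the median of all probes to 0.38 between the genotypes and to 0.37 over all 4 mice.

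Of 48 values of the 24 named probes, 29 changed sign under at least 1 alternative. The causes were not tested. With median centring, between mutant and null mice Hist1h1c was at 0.58, Hist1h1e at 0.020, Hist2h3c1 at 0.45, Hist1h3d at 0.44, Hist1h4f at 0.53, Hist1h4d at 0.54, Hist1h4i at 0.055 and Hist1h1a at -0.067. Over all 4 mice it put Hist1h1c at 0.22, Hist1h2af at 0.93, Hist2h2ac at 0.72, Hist2h3c1 at 0.59, Hist1h3d at 0.64, Hist1h4f at 0.19, Hist1h4d at 0.46, Hist1h4i at 0.16, Hist2h2aa2 at 0.13 and Hist1h1a at -0.13. Processed signals put Hist1h2aa at -0.021.

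Leaving out a mouse gave these ranges between mutant and null mice. Hist1h1c ran from -0.31 to 0.22, Hist1h1e from -0.65 to 0.34, Hist1h4d from -0.45 to 0.28 and Hist1h4f from -0.64 to 0.44. The second Hist1h2af probe ran from -0.0056 to 0.34, Hist1h2ak from -0.0047 to 0.70, Hist3h2a from -0.081 to 1.18 and Hist1h2bc from -0.065 to 0.11. Hist1h2bk ran from -0.094 to 0.32, Hist1h2bm from -0.059 to 0.43 and Hist3h2bb from -0.0087 to 0.46. Over all 4 mice, Hist1h1a ran from -0.0100 to 0.035, Hist1h2aa from -0.19 to 0.25, the first Hist1h2af probe from -0.30 to 0.23, Hist2h2aa2 from -0.18 to 0.0050 and Hist2h2ac from -0.40 to 0.052. Hist1h2bk ran from -0.041 to 0.17, Hist1h2bm from -0.046 to 0.20 and Hist3h2bb from -0.017 to 0.22. Counted over each alternative, values of named probes kept direction and side of the threshold 513 times, changed direction 48 times and were newly called once, for Hist1h2bc over all 4 mice with median centring.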
